A study of Mus musculus with 8 samples.

Results

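The genes described are those of the unfolded protein response, 34 genes chosen by name for their part in protein folding and stress signalling of the endoplasmic reticulum, of which 33 had a measurement that the platform annotation ties to that gene alone. They are 33 of the 22180 genes tested, and Pdia4 was not analysed here. The brightest probe set stood for each gene. Membership follows gene names and no measured value enters the rule, but the list was chosen with earlier results of these data known.

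Gene expression was measured on Affymetrix arrays in aorta of newborn C57BL/6 mice (postnatal day 0). The 4 groups are ascending aorta (aortic valve to ductus arteriosus) and descending aorta (reaching the diaphragm) of wild-type pups, and the same segments of pups that lack the gene for fibulin-4, a protein needed to build elastic fibres. Each array holds RNA of 1 pool of segments from 8 pups of like genotype, and each group has 2 arrays, which the titles call biological replicates. The whole wall was homogenised, so the values cover every cell type in it, and fewer cells of a type and less RNA per cell cannot be told apart. Smooth muscle markers were bright on every array (mean log2 value of the 10 markers 8.41 to 8.90). The targeted gene was not analysed here, and it gives no check of the genotype labels.

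Secreted and membrane proteins fold in the endoplasmic reticulum, where chaperones, glycosylation and disulfide isomerases assist them. When unfolded protein builds up, the sensors PERK (gene Eif2ak3), IRE1 (Ern1) and ATF6 (Atf6) signal to the nucleus, mainly through the transcription factors ATF4, spliced XBP1 and cleaved ATF6, which raise transcription of chaperones, of the machinery that exports misfolded protein for degradation, and of amino acid synthesis genes. Cells of the vessel wall that secrete collagen and elastin carry a heavy folding load. Much of the signalling is by cleavage, splicing and phosphorylation, which an array of gene-level RNA values does not read.

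ATF6 and XBP1 act through short promoter elements, so the 250 bases before the RefSeq start of each gene were searched (GRCm38.p6, 29 of 33 members with an entry and 31 promoters; Atf6, Derl1, Hyou1 and Manf had none). The endoplasmic reticulum stress element, CCAAT and CCACG with any 9 bases between them on either strand, was found in 9 of 29 members: Calr, Canx, Creld2, Derl3, Dnajc3, Hsp90b1, Hspa5, Pdia6 and Syvn1. Over all 32851 promoters of the table it was found in 37, or 0.113%. The shorter second form, ATTGG and CCACG with any 1 base between them, was found in Herpud1 and in 10 of all promoters (0.0304%). The core bound by ATF4 with C/EBP factors, TGATG, any 1 base and AA on either strand, was found in Asns, Chac1 and Herpud1, against 3.45% of all promoters. The core of the XBP1 element, TGACG directly followed by TGG, was found in 0 of 29 members and 0.563% of all promoters. These background shares are by promoter, while the members are counted by gene. Over all 27025 genes with a promoter the shares were 0.13% for the first form of the stress element and 0.037% for the shorter form. They were 3.91% for the ATF4 core and 0.603% for the XBP1 core. Some of these elements were first described in these same genes, so their presence here is background and not a result of the arrays. These stretches show the element in members whose values carry the account, with its letters in capitals. CGTGG before ATTGG is the same element read on the other strand, and TTGCATCA the ATF4 core so read. The 9 free bases of the first form are in lower case. The 1 free base of the second form and of the ATF4 core is in capitals like the rest.
Hspa5, chr2:34772010-34772058, plus strand: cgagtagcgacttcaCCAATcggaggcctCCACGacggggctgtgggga
Calr, chr8:84847060-84847108, minus strand: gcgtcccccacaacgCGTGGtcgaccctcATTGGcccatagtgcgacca
Canx, chr11:50325785-50325833, minus strand: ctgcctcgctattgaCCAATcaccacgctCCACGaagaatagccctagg
Pdia6, chr12:17266476-17266524, plus strand: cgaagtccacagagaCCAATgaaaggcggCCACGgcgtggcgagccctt
Syvn1, chr19:6046517-6046565, plus strand: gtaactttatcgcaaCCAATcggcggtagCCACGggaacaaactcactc
Herpud1, chr8:94386302-94386402, plus strand, with the ATF4 core first and the second form after it: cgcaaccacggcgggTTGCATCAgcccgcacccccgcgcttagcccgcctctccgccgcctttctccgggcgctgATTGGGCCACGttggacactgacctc
Asns, chr6:7693210-7693247, minus strand, with the ATF4 core: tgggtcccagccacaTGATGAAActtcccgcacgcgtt

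The first question was how these genes stood in the knockout with the segments averaged. All 33 had a log2 change above 0, from 0.09 (Ern1) to 0.77 (Dnajb11), with a median of 0.37, while 49.8% of all genes lay above 0 and the median over all genes was 0.00. No member passed limma's test at an adjusted p under 0.05, where 0.0721% of all genes did. The smallest adjusted p among the members was 0.242. With an unadjusted p under 0.05 there were 12 members higher in the knockout (36.4%) and 0 lower, where 7.57% of all genes were higher and 3.83% lower. In 14 members both knockout arrays lay above both wild-type arrays in each segment, a pattern that 7.81% of all genes showed. In 9 members (Hspa5, Hsp90b1, Calr, Canx, Dnajb11, Asns, Herpud1, Syvn1 and Selenos) all 4 knockout arrays lay above all 4 wild-type arrays, against 4.76% of all genes, and 0 had the reverse order, against 1.98%. The count of 12 was 7 without wild-type descending replicate 2, and 6 without knockout ascending replicate 2 or, separately, knockout descending replicate 1. The values below are therefore levels and differences of single genes that did not pass on their own.

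**Figure D1:**
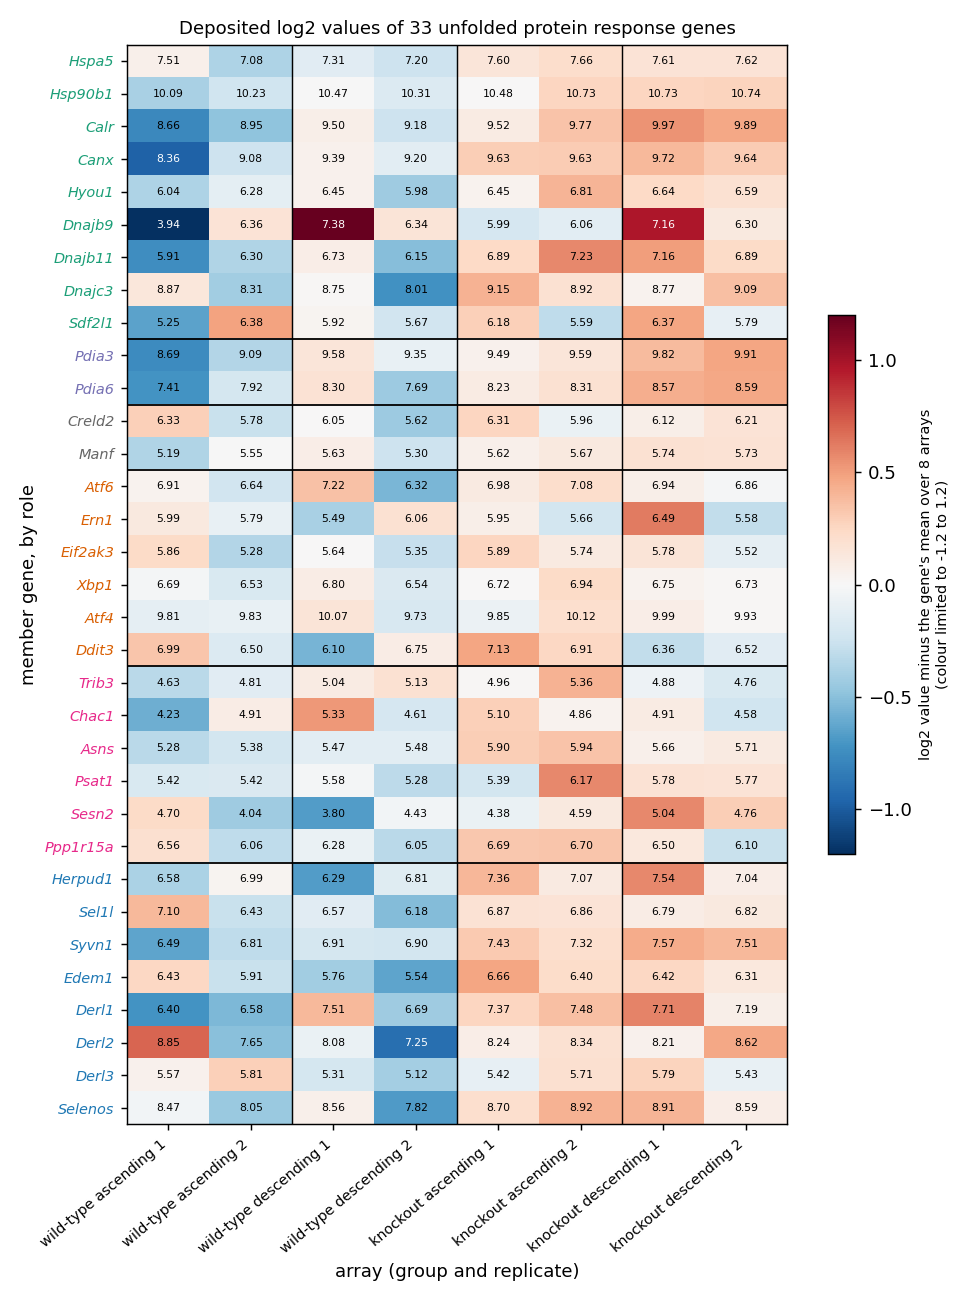
Deposited log2 value of each of the 33 members (rows, grouped by role between the black lines) on each of the 8 arrays (columns). The number in a cell is the value and the colour its distance from the gene's mean over all arrays; the 4 knockout columns are mostly red, and the replicate 2 columns of both wild-type groups mostly blue.

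The members sit in a range of signal where most genes were higher in the knockout. Of the 33 members, 30 lay above the 60th percentile of mean signal and 19 lay in the brightest of 5 equal classes of genes by signal. In that class the median over all genes was 0.24, 79.4% lay above 0 and 20.8% were higher with an unadjusted p under 0.05. The 19 members in it had a median of 0.50, and 10 of them had such a p. In the next class the median over all genes was 0.14 and that of its 11 members 0.26. Cyclic loess, an alternative chosen after seeing the data, was used to take out the level-dependent differences between arrays. The median of the members was then 0.23, and 28 of 33 lay above 0. By limma 6 had an unadjusted p under 0.05 (Calr, Dnajb11, Asns, Syvn1, Edem1 and Sesn2). The shares of all genes in that setting are not given here, so these counts have no baseline.

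**Figure D2:**
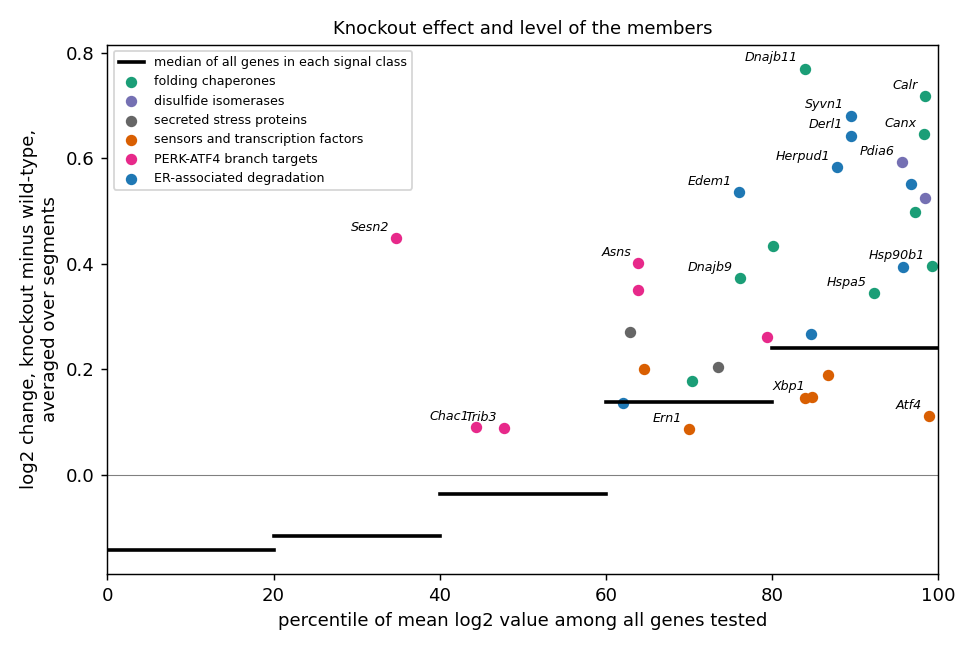
Averaged log2 change of each member (y axis) against the percentile of its mean log2 value among all genes tested (x axis), coloured by role, with the median of all genes in each of the 5 signal classes as black bars. Members of the folding and degradation roles lie mostly above the bars, and 5 of the 6 sensors and transcription factors lie below them.

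The wild-type arrays differed among themselves. On each array the members were set against their own means over the 8 arrays. On the knockout arrays 28, 29, 31 and 24 of 33 members lay above that mean (ascending 1 and 2, descending 1 and 2). The wild-type counts were 13 and 5 in ascending and 19 and 4 in descending aorta. Both wild-type replicate 2 arrays had a narrower spread of values over all genes than the other 6 (interquartile range 1.80 and 1.74 against 2.14 to 2.28). The members' median standard deviation between the 2 arrays of a group was 0.29 for the wild-type and 0.16 for the knockout in ascending aorta, and 0.25 and 0.08 in descending aorta. Over all genes these were 0.27, 0.18, 0.24 and 0.17. Without replicate 2 of both wild-type groups together, the averaged median of the members was 0.28 and 29 of 33 lay above 0. The share of all genes above 0 in that fit is not given here.

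The folding chaperones all lay above 0 (9 of 9, median 0.43), and 4 had an unadjusted p under 0.05. Their median percentile of signal was 92.3. Here and for the roles below, 49.8% of all genes lay above 0 and 7.57% were higher with such a p. In the brightest class these shares were 79.4% and 20.8%. Calr encodes calreticulin, a calcium-binding lectin chaperone of glycoproteins. Its log2 values were 8.66 and 8.95 in the wild-type against 9.52 and 9.77 in the knockout for ascending aorta, and 9.50 and 9.18 against 9.97 and 9.89 for descending aorta. Every knockout array lay above every wild-type array, by little for the highest wild-type one. The averaged log2 change was 0.72 (SE 0.18, limma adjusted p = 0.242), or 1.65-fold, with 0.85 in ascending and 0.59 in descending aorta.

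Canx encodes calnexin, the membrane-bound partner of calreticulin in the same folding cycle. It had values of 8.36 and 9.08 in the wild-type against 9.63 and 9.63 in the knockout for ascending aorta, and 9.39 and 9.20 against 9.72 and 9.64 for descending aorta. The knockout arrays lay close together and above all wild-type arrays, while wild-type ascending replicate 1 was low. The averaged change was 0.65 (SE 0.20, adjusted p = 0.322), with 0.91 in ascending and 0.38 in descending aorta.

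Dnajb11 encodes a co-chaperone that brings unfolded clients to the chaperone BiP, and it had the largest averaged change of the members, 0.77 (SE 0.21, adjusted p = 0.276). Its values were 5.91 and 6.30 in the wild-type against 6.89 and 7.23 in the knockout for ascending aorta, and 6.73 and 6.15 against 7.16 and 6.89 for descending aorta. All 4 knockout arrays again lay above all 4 wild-type arrays.

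Hspa5 encodes BiP, the chaperone that also holds the sensors inactive. Its values were 7.51 and 7.08 in the wild-type against 7.60 and 7.66 in the knockout for ascending aorta, and 7.31 and 7.20 against 7.61 and 7.62 for descending aorta. The knockout arrays were close together and above all wild-type arrays, and the averaged change was 0.35 (SE 0.18, adjusted p = 0.492). It was 0.10 after cyclic loess.

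Hsp90b1 encodes GRP94, a chaperone of integrins and other receptors. The values were 10.09 and 10.23 in the wild-type against 10.48 and 10.73 in the knockout for ascending aorta, and 10.47 and 10.31 against 10.73 and 10.74 for descending aorta, a change of 0.40 (SE 0.17, adjusted p = 0.424). The lowest knockout array was barely above the highest wild-type one. Hyou1 (averaged change 0.43), which encodes a nucleotide exchange factor of BiP, and Dnajc3 (0.50), a co-chaperone that also inhibits PERK, had both knockout arrays above both wild-type arrays in each segment. Dnajb9, a co-chaperone that restrains IRE1, and Sdf2l1, a partner of BiP complexes, did not. Dnajb9 ranged from 3.94 to 7.38 over the wild-type arrays and from 5.99 to 7.16 over the knockout arrays.

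Both disulfide isomerases measured among the members had an unadjusted p under 0.05 in the averaged effect. Pdia3, which works on glycoproteins held by calnexin and calreticulin, had values of 8.69 and 9.09 in the wild-type against 9.49 and 9.59 in the knockout for ascending aorta, and 9.58 and 9.35 against 9.82 and 9.91 for descending aorta. Both knockout arrays lay above both wild-type arrays within each segment, but wild-type descending replicate 1 lay above a knockout ascending array. The averaged change was 0.52 (SE 0.18, adjusted p = 0.351). Pdia6, an isomerase that also acts on the activated sensors, had 7.41 and 7.92 in the wild-type against 8.23 and 8.31 in the knockout for ascending aorta, and 8.30 and 7.69 against 8.57 and 8.59 for descending aorta. Its averaged change was 0.59 (SE 0.21, adjusted p = 0.354). After cyclic loess the changes of Pdia3 and Pdia6 were 0.34 and 0.35 (limma, unadjusted p = 0.0915 and 0.114). The secreted stress proteins Creld2 (0.20) and Manf (0.27), a factor that stabilises folding clients of BiP, had smaller changes with unadjusted p of 0.347 and 0.166.

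The members that act in endoplasmic reticulum-associated degradation all lay above 0 (8 of 8, median 0.54), and 5 had an unadjusted p under 0.05. They too were bright (median percentile of signal 88.6), and in the brightest class 79.4% of all genes lay above 0 and 20.8% were higher with such a p. Syvn1 encodes HRD1, the ubiquitin ligase at the centre of the export channel. It had values of 6.49 and 6.81 in the wild-type against 7.43 and 7.32 in the knockout for ascending aorta, and 6.91 and 6.90 against 7.57 and 7.51 for descending aorta. The lowest knockout array, at 7.32, lay above the highest wild-type array, at 6.91. The averaged change was 0.68 (SE 0.17, adjusted p = 0.242), or 1.60-fold, with unadjusted p of 0.0143 in ascending and 0.0275 in descending aorta.

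Herpud1 encodes a membrane protein that organises the HRD1 complex and is a strong stress target. Its values were 6.58 and 6.99 in the wild-type against 7.36 and 7.07 in the knockout for ascending aorta, and 6.29 and 6.81 against 7.54 and 7.04 for descending aorta. The groups did not overlap, although knockout descending replicate 2 and wild-type ascending replicate 2 were close. The averaged change was 0.58 (SE 0.22, adjusted p = 0.376).

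Edem1, a lectin-like protein that hands glycoproteins over for degradation, had values of 6.43 and 5.91 in the wild-type against 6.66 and 6.40 in the knockout for ascending aorta, and 5.76 and 5.54 against 6.42 and 6.31 for descending aorta. Its groups overlapped in the ascending segment and not in the descending one, and the averaged change was 0.54 (SE 0.19, adjusted p = 0.364). A second, dimmer probe set of Edem1 gave 0.56. In a limma fit over all probe sets the unadjusted p was 0.0303 for the probe set used and 0.0703 for the dimmer one.

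Derl1, a subunit of the export channel, had 6.40 and 6.58 in the wild-type against 7.37 and 7.48 in the knockout for ascending aorta, and 7.51 and 6.69 against 7.71 and 7.19 for descending aorta. The change was 0.94 in ascending aorta (SE 0.32, unadjusted p = 0.0166) and 0.35 in descending aorta (SE 0.32, unadjusted p = 0.306), where wild-type replicate 1 was about as high as the knockout. The descending change was 0.76 without that array and -0.057 without wild-type replicate 2, and the difference between segments did not pass (unadjusted p = 0.229). Selenos, a selenoprotein that recruits the extracting ATPase, had 8.47 and 8.05 in the wild-type against 8.70 and 8.92 in the knockout for ascending aorta, and 8.56 and 7.82 against 8.91 and 8.59 for descending aorta. The averaged change was 0.55 (SE 0.22, adjusted p = 0.396), and 0.36 for its second probe set. In that second probe set the genotypes overlapped in both segments, so the separation was seen in the brighter probe set only. Sel1l, the partner of HRD1, had 0.27, and the channel subunits Derl2 and Derl3 had 0.39 and 0.14. For Derl2 the ascending change was 0.04 in the probe set used and 0.44 in its dimmer one, so the probe sets disagree there.

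The sensors and transcription factors had the lowest median of the 6 roles (6 of 6 above 0, median 0.15, range 0.09 to 0.20), and 0 had an unadjusted p under 0.05. Atf6 had values of 6.91 and 6.64 in the wild-type against 6.98 and 7.08 in the knockout for ascending aorta, and 7.22 and 6.32 against 6.94 and 6.86 for descending aorta. Both knockout arrays lay above both wild-type arrays in the ascending segment, while in the descending segment they lay between them, and the averaged change was 0.19 (SE 0.22).

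Eif2ak3, the gene of PERK, had 5.86 and 5.28 in the wild-type against 5.89 and 5.74 in the knockout for ascending aorta, and 5.64 and 5.35 against 5.78 and 5.52 for descending aorta, a change of 0.20 (SE 0.20). Ern1, the gene of IRE1, had 5.99 and 5.79 in the wild-type against 5.95 and 5.66 in the knockout for ascending aorta, and 5.49 and 6.06 against 6.49 and 5.58 for descending aorta, a change of 0.09 (SE 0.25). Neither gene separated the genotypes in any segment.

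Xbp1, whose RNA is spliced by IRE1, had 6.69 and 6.53 in the wild-type against 6.72 and 6.94 in the knockout for ascending aorta, and 6.80 and 6.54 against 6.75 and 6.73 for descending aorta. The knockout arrays lay above the wild-type ones in the ascending segment and between them in the descending segment, and the averaged change was 0.15 (SE 0.17). Ddit3 encodes CHOP, a factor tied to cell death under prolonged stress. It had 6.99 and 6.50 in the wild-type against 7.13 and 6.91 in the knockout for ascending aorta, and 6.10 and 6.75 against 6.36 and 6.52 for descending aorta, a change of 0.15 (SE 0.21). Atf4 had 0.11 (SE 0.18), also with its ascending arrays clear of each other. In all, 3 of 6 were clear higher in the ascending segment (21.5% of all genes) and 0 in the descending one (21.6%). After cyclic loess the changes of Atf6, Ern1, Xbp1 and Ddit3 were -0.02, -0.01, -0.05 and -0.05, so these 4 have no settled direction. The averaged change of Eif2ak3 was 0.15 after cyclic loess and -0.015 without replicate 2 of both wild-type groups. Its direction is not settled either.

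Targets of the PERK and ATF4 branch were mixed (6 of 6 above 0 on average, median 0.31, 1 with an unadjusted p under 0.05). Asns, which makes asparagine, had values of 5.28 and 5.38 in the wild-type against 5.90 and 5.94 in the knockout for ascending aorta, and 5.47 and 5.48 against 5.66 and 5.71 for descending aorta. The arrays of each group lay close together and no wild-type array reached a knockout one. The averaged change was 0.40 (SE 0.16, adjusted p = 0.403), with 0.59 in ascending and 0.21 in descending aorta.

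Sesn2, a stress-induced regulator of growth signalling, had 4.70 and 4.04 in the wild-type against 4.38 and 4.59 in the knockout for ascending aorta, and 3.80 and 4.43 against 5.04 and 4.76 for descending aorta. It separated the genotypes in the descending segment (0.79, SE 0.32, unadjusted p = 0.0360) and overlapped in the ascending one (0.11). Sesn2 was also the dimmest member, with a percentile of mean signal of 34.7. Psat1, of serine synthesis, had an averaged change of 0.35, and Ppp1r15a, the phosphatase subunit that ends the translational block, 0.26.

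Trib3 and Chac1, which are induced with CHOP, had opposite signs in the segments. Both were dim beside most members (percentile of mean signal 47.8 and 44.4). Trib3, a pseudokinase, had 4.63 and 4.81 in wild-type ascending against 4.96 and 5.36 in knockout ascending aorta, and 5.04 and 5.13 in wild-type descending against 4.88 and 4.76 in knockout descending aorta. The genotypes did not overlap in either segment, with the knockout higher in the first (21.5% of all genes) and lower in the second (15.8%). The changes were 0.44 and -0.26, and their difference of 0.70 (SE 0.36) had an unadjusted p of 0.0796 and an adjusted p of 1.00 by limma. Chac1, which degrades glutathione, had 0.41 and -0.23, with overlapping groups in both segments.

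**Figure D3:**
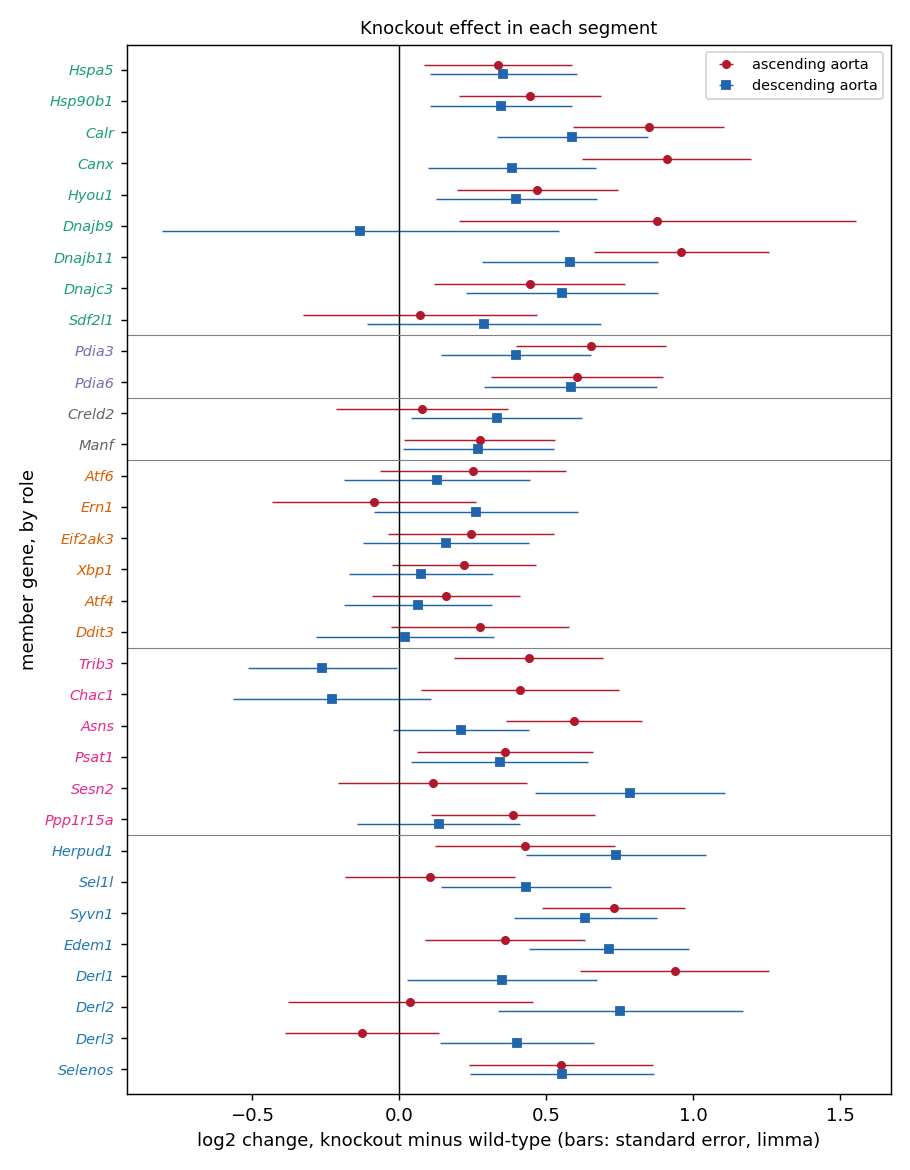
Log2 change, knockout minus wild-type, of each member in ascending (red circles) and descending aorta (blue squares), with standard errors from limma as bars, grouped by role between the grey lines. Most points lie to the right of 0 and most bars overlap between segments; Trib3, Chac1, Dnajb9, Ern1 and Derl3 have opposite signs.

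In the ascending aorta 31 of 33 members lay above 0, where 49.3% of all genes did. Their median was 0.39, against -0.01 over all genes. In the brightest class, which holds 19 members, the ascending median was 0.44 for those members and 0.25 over all genes. The shares of all genes given by segment are not matched for signal. The 7 members with an unadjusted p under 0.05 were Calr, Canx, Dnajb11, Pdia3, Asns, Syvn1 and Derl1, where 5.31% of all genes were higher with such a p. None was lower with such a p, against 3.6%. In 20 of 33 both knockout arrays lay above both wild-type arrays, against 21.5% of all genes. None was called after adjustment (smallest adjusted p 0.433), as was no gene of all those tested. Leaving out wild-type ascending replicate 1 took the count of 7 to 1, and leaving out knockout ascending replicate 2 took it to 2.

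In the descending aorta 30 of 33 members lay above 0, against 53.7% of all genes, with a median of 0.35 (0.03 over all genes). In the brightest class the descending median was 0.40 for its 19 members and 0.23 over all genes. Calr, Sesn2, Herpud1, Syvn1 and Edem1 had an unadjusted p under 0.05 by limma in this segment. Over all genes 3.63% were higher with such a p. No member was lower, against 2.32% of all genes. Both knockout arrays lay above both wild-type arrays in 21 of 33, against 21.6% of all genes, and the smallest adjusted p was 0.804, where 0.00451% of all genes were called. The median was 0.21 without wild-type descending replicate 2 and 0.48 without wild-type descending replicate 1. The same omissions took the count of 5 to 2 and to 8. It was 2 when either of the knockout ascending arrays was left out. Leaving out knockout descending replicate 1 gave 0, and replicate 2 gave 1.

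The changes in the segments share no array, although whether their pools share pups was not stated. In 28 of 33 members both were above 0, against 32.2% of all genes, a share not matched for signal. Only Calr and Syvn1 had an unadjusted p under 0.05 by limma in each segment. Across the 33 members the size of the change in one segment told little of that in the other (Pearson correlation 0.06, Spearman 0.14). Over all genes these were 0.31 and 0.32, and genes are not independent replicates. The difference between segments, ascending minus descending, was above 0 in 21 of 33 (47.6% of all genes) with a median of 0.08. Without wild-type descending replicate 1 that median was -0.064 with 14 above 0, and without replicate 2 it was 0.26. By limma 0 members had an unadjusted p under 0.05 for it, against 1.62% of all genes higher and 1.68% lower, and 0 passed after adjustment. The 95% intervals were wide: -0.38 to 1.44 for Canx, -0.44 to 1.61 for Derl1, -0.68 to 0.87 for Syvn1 and -0.82 to 0.78 for Hspa5.

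The segments were also compared within a genotype. In wild-type aorta 16 of 33 members were higher in the ascending segment (51.7% of all genes), with a median difference of -0.01, and in the knockout 17 of 33 (48.3% of all genes), with a median of 0.01. In wild-type aorta Dnajb9 (-1.72, unadjusted p = 0.0304) and Pdia3 (-0.58, unadjusted p = 0.0483) were lower in the ascending segment, where 2.98% of all genes were lower with such a p. None was higher, against 3.21%, and none passed after adjustment, where 0.00902% of all genes did. In knockout aorta 0 members had an unadjusted p under 0.05 by limma, against 2% of all genes higher and 2.04% lower. For Dnajb9 the wild-type difference rests on ascending replicate 1, at 3.94 against 6.36 in replicate 2.

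The 9 members that hold the first form of the stress element had a median averaged change of 0.50, from 0.14 (Derl3) to 0.72 (Calr). Of these, 7 had knockout arrays clear above wild-type arrays in both segments. The 20 members with a promoter and without that form had a median of 0.31, and 5 were clear in both segments. Herpud1, which holds the second form, is counted among these 20 and among these 5. Over all genes 7.81% were clear in both, and in the brightest class 21.2%. Members with the first form were also brighter (median log2 value 8.13 against 6.28), in a range where most genes were higher. Among the other 18 measured genes with the first form, most of them outside this pathway and dim (median log2 value 3.97), 6 lay above 0. Their median was -0.09. This comparison was made after the values were seen and has no test.

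Other genes of the endoplasmic reticulum were taken from lists drawn up by name. Their counts are to be read against 49.8% above 0 and 7.57% higher with an unadjusted p under 0.05 over all genes, and against 79.4% and 20.8% with a median of 0.24 in the brightest class, since these lists are bright too (median percentile of signal 82.0 to 96.6). Of other folding and redox genes 24 of 26 lay above 0 (median 0.28), and 9 had an unadjusted p under 0.05, all higher. Fkbp11, a proline isomerase of secretory cells, stood at 1.02 (SE 0.19, adjusted p = 0.128), Uggt1, the folding sensor that returns glycoproteins to calnexin, at 0.64, and Erp44, which retains oxidising enzymes, at 0.67. For translocation and N-glycosylation 18 of 21 lay above 0 (85.7%, median 0.28) and 4 had such a p (19%), shares near those of the brightest class, with Rpn1 (0.54) and Rpn2 (0.56) of the oligosaccharyltransferase and Sec61a1 (0.66), the pore of the translocon, among them. Among other degradation genes 16 of 18 lay above 0 (median 0.28, 5 with such a p). They include Ube2j1, a ubiquitin-conjugating enzyme of the HRD1 pathway (1.08, SE 0.21, adjusted p = 0.132), the ligase Rnf139 (1.19, SE 0.30) and Edem2 (0.53).

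Of the other genes of the integrated stress response 23 of 27 lay above 0 (median 0.38, 10 with an unadjusted p under 0.05, all higher). Slc7a5, the light chain of a transporter for large neutral amino acids, had 5.56 and 6.40 in the wild-type against 7.58 and 7.97 in the knockout for ascending aorta, and 6.50 and 6.36 against 8.23 and 7.32 for descending aorta. No wild-type array reached a knockout one, and the averaged change was 1.57 (SE 0.27, adjusted p = 0.0988). Slc3a2, its heavy chain, stood at 0.64 (SE 0.18) and the stress protein gene Nupr1 at 0.82 (SE 0.20). Among other regulators 17 of 19 lay above 0 (median 0.26), with Creb3l2, a membrane-bound factor related to ATF6 that serves secretion, at 0.76, Nfyb, a subunit of the factor that binds CCAAT, at 0.73, and Eif2ak1, a kinase of the same family as PERK, at 0.73.

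Genes of transport from the endoplasmic reticulum to the Golgi apparatus lay above 0 in 20 of 22 (median 0.39, 8 with an unadjusted p under 0.05), including the cargo receptor Lman1 (0.66) and the coat subunits Sec23a (0.60) and Sec24a (0.62). Stress genes of other compartments were measured beside them. Cytosolic heat shock genes lay above 0 in 9 of 9 (median 0.49, 4 with such a p, Hsph1 at 0.75, Hspb1 at 0.62 and Bag3 at 0.66). Mitochondrial chaperones and proteases lay above 0 in 7 of 10 (median 0.18), and 0 had such a p by limma. No gene of these 8 lists was called after adjustment. The members' median of 0.37 thus lay within the range of the other lists, 0.18 to 0.49, and no difference between lists was tested.

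**Figure D4:**
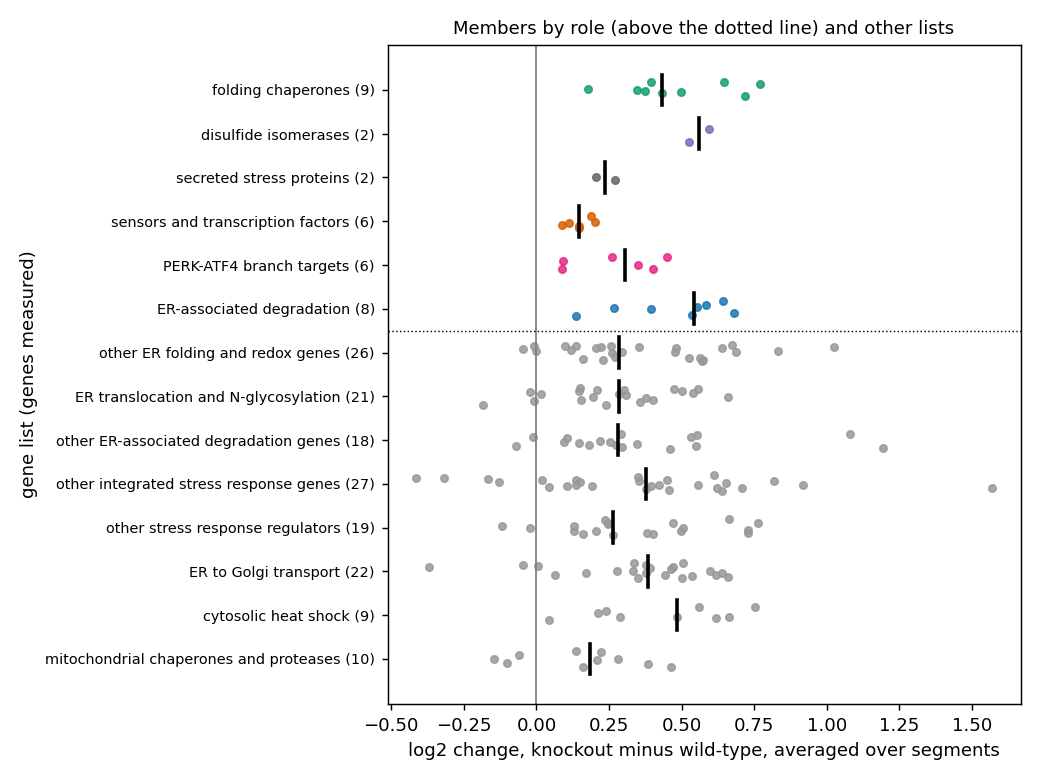
Averaged log2 change, knockout minus wild-type, of every measured gene (points) in the 6 roles of the members (coloured) and in 8 other lists (grey), with the median of each list as a black bar and the median of all genes as a vertical line, which falls at 0.00. Sensors and transcription factors form a tight cluster near 0.15, and most points of the folding, degradation and transport lists lie above 0.

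Markers of the cell types of the wall and of other cells were measured on the same arrays. Over all genes 49.8% lay above 0 in the averaged effect, and by limma 7.57% were higher and 3.83% lower with an unadjusted p under 0.05. In ascending aorta these 2 shares were 5.31% and 3.6%, and in descending aorta 3.63% and 2.32%. In the brightest class 79.4% lay above 0 with a median of 0.24. Myeloid markers lay above 0 in 10 of 10 (averaged median 0.86, 8 with an unadjusted p under 0.05), with a mean log2 value of 5.99 to 6.70 on the wild-type and 6.94 to 7.29 on the knockout arrays. Endothelial markers lay above 0 in 0 of 10 (median -0.44, 3 lower with such a p; mean value 7.06 to 7.66 in the wild-type and 6.28 to 7.47 in the knockout). Adipocyte markers lay above 0 in 1 of 8 (median -0.99, 6 lower with such a p; 6.16 to 8.25 and 5.85 to 6.58), and skeletal muscle markers in 2 of 10 (median -0.51; 5.39 to 8.10 and 5.70 to 6.37). By segment, with no test of the difference, the skeletal muscle median was -1.61 in ascending aorta (1 of 10 above 0, 6 lower with an unadjusted p under 0.05) and 0.60 in descending aorta (8 of 10 above 0, 2 higher). The endothelial median was -0.78 in ascending (7 lower with such a p) and -0.11 in descending aorta (0 lower by limma), and the myeloid median 1.08 (8 higher) and 0.58 (3 higher). Smooth muscle markers lay above 0 in 8 of 10 (median 0.27; 8.41 to 8.64 and 8.69 to 8.90), a share and a median near those of the brightest class. Fibroblast markers lay above 0 in 7 of 8 (median 0.22; 8.90 to 9.53 and 9.37 to 9.54). Markers of B and plasma cells, which carry a high folding load, lay above 0 in 3 of 7 (median -0.08; 4.57 to 5.38 and 4.74 to 4.93). Cardiomyocyte markers lay above 0 in 9 of 10 (median 0.32), those of sympathetic and chromaffin cells in 5 of 6 (median 0.27) and those of erythroid cells in 0 of 2 (median -0.11). No marker was called after adjustment. RMA values have no true zero, so none of these markers can be called absent, and their part in the members' differences was not tested.

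**Figure D5:**
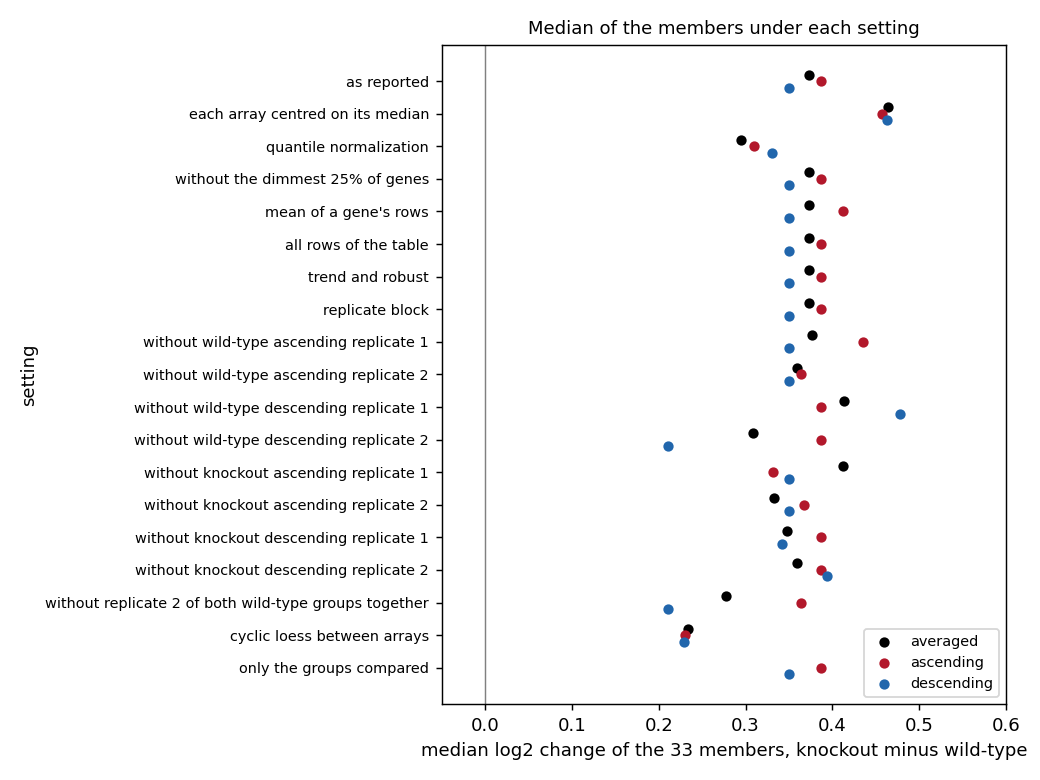
Median log2 change of the 33 members, knockout minus wild-type, averaged (black), in ascending (red) and in descending aorta (blue), as reported and under each alternative (rows). Every point lies above 0, from 0.21 to 0.48, and the descending median moves most with the wild-type descending array that is left out.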

How the data were processed

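The authors deposited 1 log2 value per probe set and array, made with Affymetrix Expression Console and RMA from 5 ng of RNA per pool, per the submitters' processing notes and the labels' protocols; their versions are not stated in those labels. Of 41345 probe sets, 23521 had 1 gene symbol, 1814 had several and 16010 were not named. The brightest probe set was kept per gene, which left 22180 genes. Each gene was modelled by limma 3.58.1 (R 4.3.3) as a mean per group over all 8 arrays, with no block (4 residual and 5.52 prior degrees of freedom), and p-values were adjusted by Benjamini-Hochberg over all 22180 genes. Precision is limited by the number of arrays: the median SE was 0.30 for a change in one segment and 0.21 for the average. The procedure was run on simulated data with known changes and noise of equal spread in every group. That simulation does not cover the unequal spreads of these groups or level-dependent differences between arrays. Figures used matplotlib 3.10.9.

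The members and lists were chosen with earlier results of these data known. Values on every array are given for members with an unadjusted p under 0.05 in a knockout comparison and for Atf6, Ern1, Eif2ak3, Hspa5, Xbp1 and Ddit3. From each other list, up to 3 genes per direction with the smallest such p are named. Trib3 and Slc7a5 were given per array after their values were seen. Alternatives were other scalings, filters, probe set rules, variance models, a replicate block, fewer groups, left-out arrays and, chosen after seeing the data, cyclic loess.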

Additional observations from a re-analysis of the deposited data

Results flagged for a closer look

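Trib3 was the 1 member whose knockout arrays both lay above both wild-type arrays in ascending aorta and both below them in descending aorta. The difference of its knockout effect between the segments was 0.703 on the log2 scale (95% interval -0.10 to 1.51). It did not pass limma's test (unadjusted p = 0.0796), and 33 members were examined for such a pattern. Over all genes 21.5% were clear higher in the ascending and 15.8% clear lower in the descending segment. The share of all genes with both together is not given here.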

How the results depend on the processing

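No member passed at an adjusted p under 0.05 in any knockout comparison under any alternative, and the 12 members with an unadjusted p under 0.05 in the averaged effect stayed above 0 under all of them. The count of all genes called ranged from 0 to 50 around 16 (averaged), 0 to 14 around 0 (ascending) and 0 to 7 around 1 (descending). The members' median moved by more than the spread between replicates (SD 0.11) after cyclic loess, to 0.23 averaged, 0.23 ascending and 0.23 descending. It did so in the descending aorta after median centring of the arrays (0.46) and without replicate 2 of both wild-type groups (0.21), which also gave 0.25 for the difference between segments and -0.20 for the segments in wild-type. Centring moved the descending median of all genes from 0.03 to 0.14. With 1 array left out, the medians ran from 0.31 to 0.41 averaged, 0.33 to 0.44 ascending, 0.21 to 0.48 descending, -0.064 to 0.26 for the difference and -0.19 to 0.066 in wild-type. Counts of members at an unadjusted p under 0.05 ran from 6 to 13 averaged, 1 to 9 ascending and 0 to 8 descending. After cyclic loess the counts were 6 averaged and 2 descending. The descending count was 2 after quantile normalization, 2 over all rows of the table and 3 without replicate 2 of both wild-type groups. The cause of these shifts was not tested. With the replicate number as a block the members' counts were 12, 7 and 4, against 12, 7 and 5, and the medians were the same. The labels do not say what arrays of the same number share. Their deviations correlated from -0.08 to 0.29 over pairs of groups, highest for the wild-type pair, so the numbers were not taken as pairs. Of 1007 values of single members under the alternatives, 67 moved by more than the replicates' spread.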
